A study of Mus musculus with 8 samples.

Results

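The Hox genes of the 4 mouse clusters were read in RNA sequencing libraries of embryonic hearts. Members were the genes of the deposited count tables whose symbol was Hox, a cluster letter from a to d and a paralog number, with antisense and host RNAs left out, which took 39 of 49315 genes. Hoxa held 11 members (chr6:52155590-52260880), Hoxb 10 (chr11:96194316-96368256), Hoxc 9 (chr15:102921103-103036852) and Hoxd 9 (chr2:74668310-74765142), on build GRCm38. The study asked how the hearts of male and female C57BL/6 embryos at embryonic day 9.5 differ, with 4 libraries of each sex, no treatment and no altered allele. Sex was read by genotyping Sry in other tissue of the same embryo, RNA came from Trizol and libraries from an Illumina TruSeq kit. Whether each library came from 1 heart or a pool, and which embryos were litter mates, is not in the labels, and the p-values given speak only to the scatter among these 8 libraries.

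Hox genes encode homeodomain transcription factors that give cells their position along the body axis. Within a cluster the genes lie in the order in which they act: the low paralog numbers, at the 3′ end, are switched on first and furthest forward, under retinoic acid, and the high numbers follow later in the trunk and tail. In and around the heart, Hoxb1 and Hoxa3 mark progenitors of the second heart field, which add to the outflow tract and the atrial pole, and low-numbered Hox genes are also used by the cardiac neural crest and the foregut wall.

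Total counts ranged from 20105913 to 51134291 per library, and Hox genes took 485 to 1958 of them. Xist, transcribed from the inactive X chromosome, had 4829 to 12303 counts in the female libraries and 8 to 21 in the male ones, which matches the labels. Summed myocardial markers reached 34797 to 57715 CPM (library-size-scaled counts, with TMM factors), so the libraries carried the heart muscle they were labelled with. Female replicate 1 and Male replicate 2 were singled out because they stood apart in the Hox genes, as described for each result. Values are given with and without them. Male replicate 2 also stood apart over all tested genes, as the highest library for 31.9% of them and the lowest for 33.4%. In these bulk samples, fewer cells of a type and less RNA per cell cannot be told apart.

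Hox RNA in these hearts came almost wholly from the 3′ ends of Hoxa and Hoxb. The 15 members with paralog numbers 1 to 5 held 8181 of 8542 Hox counts, or 95.8%, and the 24 members numbered 6 to 13 held 361, or 4.23%. The 10 low-numbered genes of Hoxa and Hoxb alone held 93.1%. Without Female replicate 1 and Male replicate 2, the low numbers held 94.5% and the 10 genes of Hoxa and Hoxb 91.3%. By library, the share of the low numbers ran from 90.8% in Male replicate 1 (95% Wilson interval 88.4 to 92.8, counting error only) to 97.9% in Male replicate 2 (97.2 to 98.5). Hoxb gave 69.6% of Hox counts, Hoxa 26.4%, Hoxc 2.55% and Hoxd 1.42%. Paralog group 4 was the most counted, with 3122 counts.

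**Figure D1:**
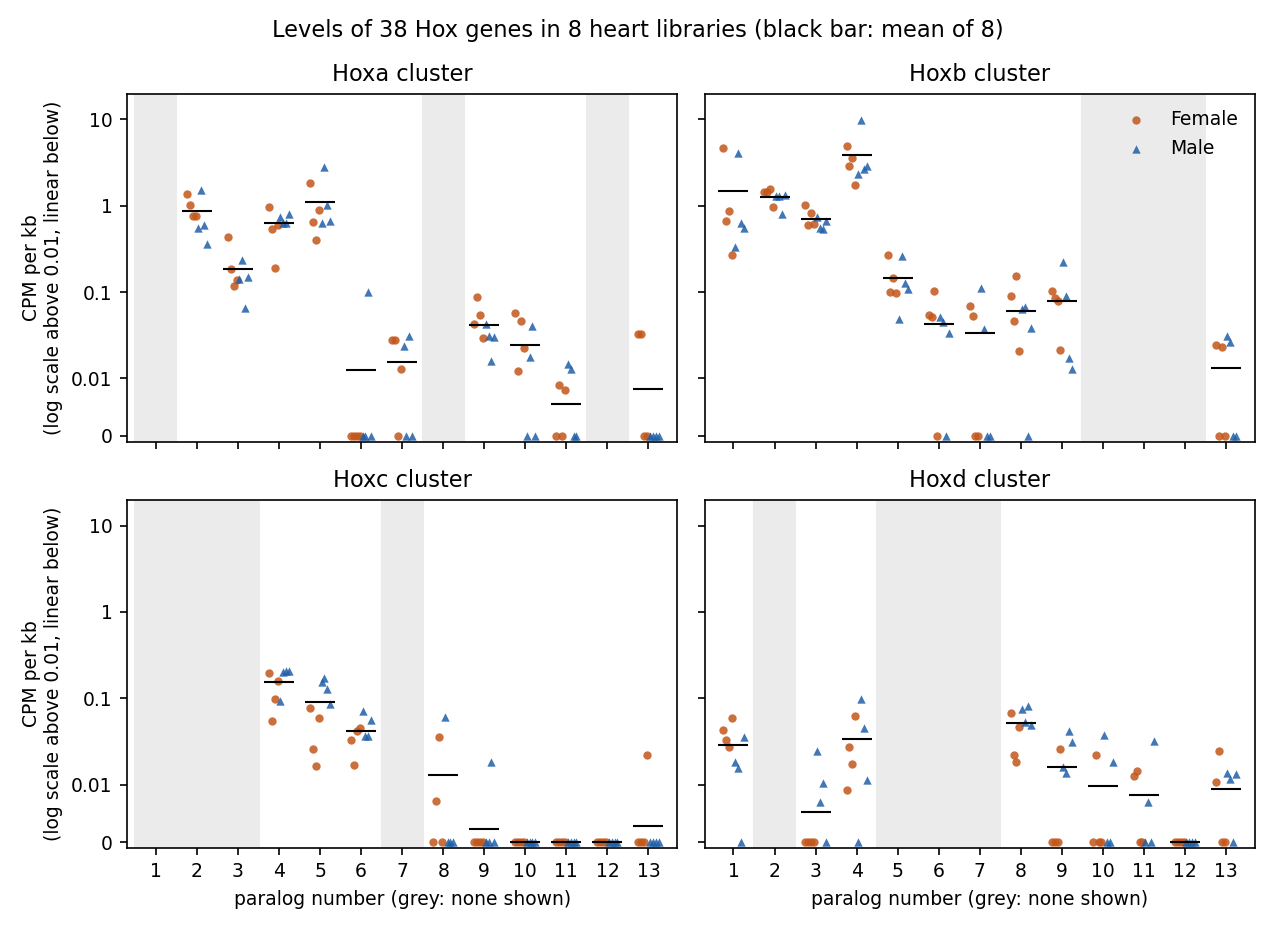
Level of 38 Hox genes (CPM per kb, log axis above 0.01 and linear below) by cluster and paralog number, with points for female and male libraries and a bar for the mean of 8. The low-numbered genes of Hoxa and Hoxb stand above the rest, led by Hoxb4, and the members numbered 6 and above lie near 0.

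Hoxb4 was the most abundant Hox transcript per unit of length in all 8 libraries. Its level was 3.87 ± 2.63 CPM per kb (SD, n = 8 libraries), and it exceeded that of Hoxb1, the next by mean, in 8 of 8 libraries. Below it, in falling order, came Hoxb1 (1.5 ± 1.77 CPM per kb), Hoxb2 (1.27 ± 0.258), Hoxa5 (1.11 ± 0.803), Hoxa2 (0.864 ± 0.400), Hoxb3 (0.695 ± 0.162) and Hoxa4 (0.640 ± 0.226). Hoxa3, Hoxc4 and Hoxb5 followed at 0.183 ± 0.111, 0.152 ± 0.0617 and 0.145 ± 0.0791 CPM per kb. Of neighbours among these 10, only Hoxa4 and Hoxa3 had means further apart than the larger of their SDs. These SDs are between libraries, while the genes were read in the same libraries, so they do not weigh the order within a library. Hoxa4 was above Hoxa3 in 8 of 8 libraries, as Hoxb4 was above Hoxb1. Hoxb1 was above Hoxb2 in 2 and Hoxb2 above Hoxa5 in 5. The second place of Hoxb1 rested on Female replicate 1 and Male replicate 2: over the other 6 libraries Hoxb1 was at 0.551 ± 0.222 CPM per kb and came eighth, while Hoxb4 stayed first at 2.67 ± 0.612 and Hoxb2 was second at 1.23 ± 0.291. In single libraries, Hoxb1 was second in those 2, Hoxa5 in Male replicate 3 and Hoxb2 in the remaining 5. Level did not follow position along the cluster step by step, since Hoxb4 stood above its neighbours Hoxb3, 1.69 kb away, and Hoxb5. Length is the exon length in the deposited tables, which is 6014 bases for Hoxa3, where the level per kb was low.

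Levels of the tested Hox genes varied more between libraries than the median over all tested genes. The genes compared were not matched for abundance, so how far low counts raised the coefficient of variation was not tested. The median coefficient of variation over the 11 members with enough counts to be tested was 54.6%, against 16.4% over all 16377 genes tested, where the 90th percentile was 42.7%. Without Female replicate 1 and Male replicate 2 the members' median was 30.03%, against 11.5% over all genes tested, where the 90th percentile was 35.1%. These 2 libraries were singled out on their Hox values, so a fall in the Hox median without them partly follows from that choice. Hoxb5 and Hoxc4 were the least counted of the 11. The spread was not shared evenly: Hoxb2 (20.4%) and Hoxb3 (23.3%) varied least and Hoxb1 (118%) most, although Hoxb1 and Hoxb2 lie 11.7 kb apart. Over the 6 libraries other than Female replicate 1 and Male replicate 2 the coefficient of Hoxb1 was 40.3% and that of Hoxb4 22.9%, against 68.1% for Hoxb4 over all 8.

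Promoters are shown for 4 of the 6 members whose levels were highest in those 2 libraries, since these are the genes the variation turns on. Sequences are the 250 bases before and 50 after the start site, 5′ to 3′ on the gene's strand, from RefSeq on GRCm38.p6, where 22 of 39 members matched. Capitals mark matches, on either strand, to TGATNNAT, the joint site of Hox and Pbx proteins, to TGACAG, the Meis site, and to AGGTCA, the half-site of retinoic acid receptors. The windows are chr11:96365508-96365807 (plus strand) for Hoxb1, chr11:96318017-96318316 (plus) for Hoxb4, chr6:52204538-52204837 (minus) for Hoxa5 and chr6:52164782-52165081 (minus) for Hoxa2.
Hoxb1: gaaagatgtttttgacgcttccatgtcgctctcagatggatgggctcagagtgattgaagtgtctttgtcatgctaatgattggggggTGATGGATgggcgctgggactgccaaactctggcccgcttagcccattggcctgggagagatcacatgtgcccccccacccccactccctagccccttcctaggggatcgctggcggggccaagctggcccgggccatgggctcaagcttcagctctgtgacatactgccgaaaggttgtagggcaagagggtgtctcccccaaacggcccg
Hoxb4: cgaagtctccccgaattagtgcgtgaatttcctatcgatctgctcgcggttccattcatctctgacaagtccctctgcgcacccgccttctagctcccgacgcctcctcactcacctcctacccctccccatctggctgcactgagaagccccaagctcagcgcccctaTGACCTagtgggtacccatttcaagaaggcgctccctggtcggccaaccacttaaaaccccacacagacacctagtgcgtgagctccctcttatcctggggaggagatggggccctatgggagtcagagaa
Hoxa5: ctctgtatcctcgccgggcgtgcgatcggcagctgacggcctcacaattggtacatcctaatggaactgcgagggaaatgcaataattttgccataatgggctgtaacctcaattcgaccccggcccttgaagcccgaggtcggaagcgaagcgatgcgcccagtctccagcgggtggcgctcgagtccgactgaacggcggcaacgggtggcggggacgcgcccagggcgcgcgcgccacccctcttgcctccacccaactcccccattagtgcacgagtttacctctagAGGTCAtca
Hoxa2: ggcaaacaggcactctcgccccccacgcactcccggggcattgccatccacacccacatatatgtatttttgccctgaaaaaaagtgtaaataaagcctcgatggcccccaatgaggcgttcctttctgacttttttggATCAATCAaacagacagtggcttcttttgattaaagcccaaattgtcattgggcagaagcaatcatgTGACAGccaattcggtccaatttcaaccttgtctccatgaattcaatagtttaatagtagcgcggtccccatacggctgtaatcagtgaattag
The Hoxb1 window held TGATNNAT once, 162 bases before the start site on the gene's strand, and the Hoxa2 window held it on the opposite strand at 111 bases before, with TGACAG at 44 bases before. AGGTCA lay 81 bases before the Hoxb4 start site on the opposite strand and 41 bases after that of Hoxa5. Over all 32851 RefSeq promoter windows of 300 bases, TGATNNAT was found in 8.85%, TGACAG in 19.2% and AGGTCA in 16.3%. Among the 24 windows of the 22 matched Hox genes, TGATNNAT was in 4 (Hoxa2, Hoxb1, Hoxb8 and Hoxd11), TGACAG in 2 (Hoxa2 and Hoxa3) and AGGTCA in 7 (Hoxa5, Hoxb4, Hoxc4, Hoxd3, Hoxd4, Hoxd8 and Hoxd10). These matches describe letters only, and no binding was measured.

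Hoxb1 patterns the hindbrain and the earliest second heart field. It was at 10.8, 1.53, 2.03 and 0.621 CPM in Female replicates 1 to 4 and at 0.781, 9.43, 1.46 and 1.27 CPM in Male replicates 1 to 4. One library of each sex was far above the rest, and the groups overlapped (female mean 3.73 ± 4.72 CPM, male mean 3.23 ± 4.14 CPM, SD over 4 libraries). Of the Hox counts in Female replicate 1, 21.2% were Hoxb1 (95% Wilson interval 19.4 to 23.1), and 16.5% (15.0 to 18.3) in Male replicate 2. The next highest share was 7.4%, in Female replicate 3. The other 5 shares were lower still, so the gene set these 2 libraries apart from the remaining 6.

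The steadier genes were Hoxb2 and Hoxb3, which act in the hindbrain and its neural crest. Hoxb2 was at 5.07, 4.97, 5.52 and 3.34 CPM in the female libraries and at 4.48, 4.48, 2.83 and 4.60 CPM in the male ones. Hoxb3 was at 4.35, 2.56, 3.49 and 2.63 CPM and at 3.13, 2.36, 2.30 and 2.83 CPM. Neither was raised in Male replicate 2, and highest over lowest library came to 1.95 for Hoxb2 and 1.89 for Hoxb3, against 17.3 for Hoxb1. Counts of these genes may be raised or lowered by Hoxb3os, an antisense RNA whose exons cover 52.9% of Hoxb3 and 27.3% of Hoxb2. The sources used here do not give the strand setting of the counting. Gm28308, which shares exons with Hoxa2 and Hoxa3 on the same strand, had 0 counts in every library. How reads on shared exons were counted was not tested. Measured within a library as a ratio of counts, Hoxb1 stood at 2.12 times Hoxb2 in Female replicate 1 (95% Wilson-based interval 1.79 to 2.52) and at 2.10 in Male replicate 2 (1.74 to 2.55), against 0.174 to 0.516 in the other 6. Hoxb3 to Hoxb2 stayed between 0.514 and 0.858 in all 8. These ratios do not depend on library size or scaling, so Hoxb1 and Hoxb2, of the same cluster, differed unequally between libraries.

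**Figure D2:**
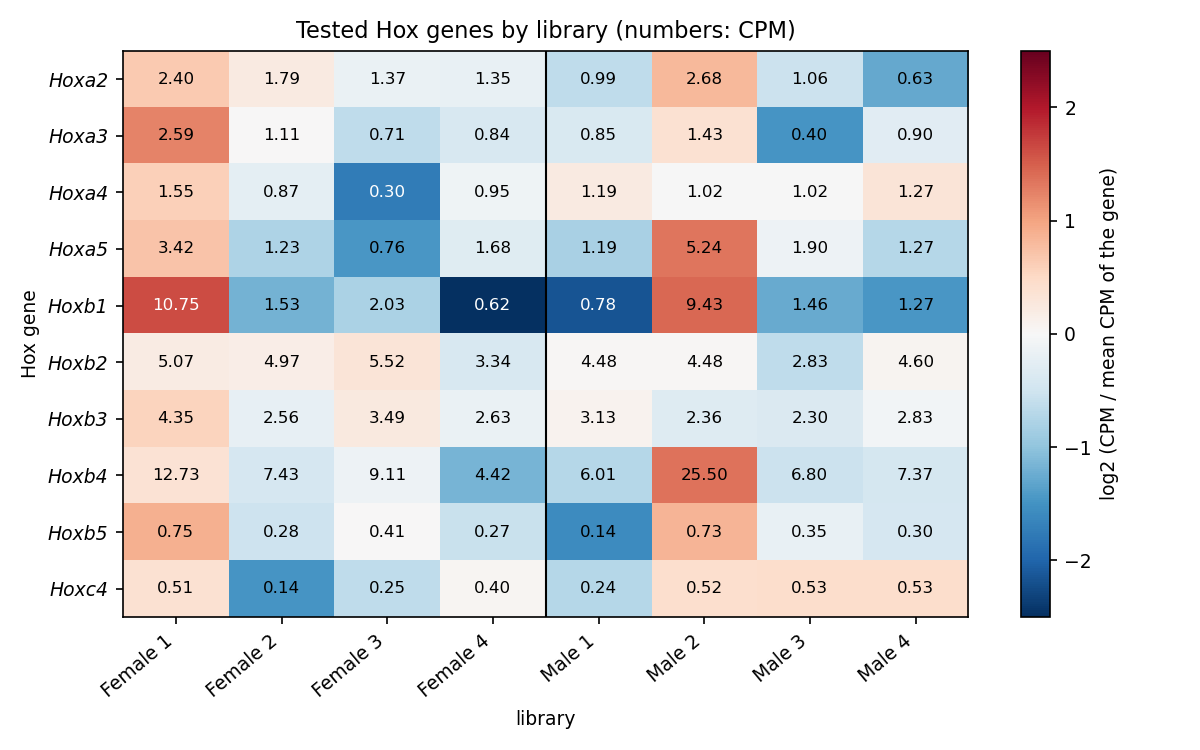
CPM of 10 tested Hox genes in each of the 8 libraries, coloured by log2 of CPM over the gene's mean. Hoxb1 and Hoxb4 are high in Female replicate 1 and Male replicate 2, while Hoxb2 and Hoxb3 vary less than 2-fold.

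Paralog groups 4 and 5 mark the posterior pharynx, foregut and anterior trunk. Hoxb4 was at 12.7, 7.43, 9.11 and 4.42 CPM in the female libraries and at 6.01, 25.5, 6.80 and 7.37 CPM in the male ones. Male replicate 2 was far above the other libraries, Female replicate 1 was next, and the 2 groups overlapped. Hoxb4 to Hoxb2 was 5.69 by counts in Male replicate 2 (95% interval 4.79 to 6.75), 2.51 in Female replicate 1 and 1.32 to 2.41 in the rest. Hoxa5, needed for lung and foregut mesenchyme, was at 3.42, 1.23, 0.760 and 1.68 CPM in females and at 1.19, 5.24, 1.90 and 1.27 CPM in males, with the same 2 libraries highest. Hoxa4, its neighbour, was at 1.55, 0.866, 0.304 and 0.950 CPM in females and 1.19, 1.02, 1.02 and 1.27 CPM in males. Male replicate 2 was not raised for Hoxa4, which puts it with Hoxb2 and Hoxb3 in that respect. Hoxb5 was low, at 0.747, 0.282, 0.405 and 0.274 CPM in females and 0.136, 0.728, 0.353 and 0.300 CPM in males. Hoxc4, the single tested member outside Hoxa and Hoxb, was at 0.507, 0.141, 0.253 and 0.402 CPM in females and 0.238, 0.524, 0.530 and 0.533 CPM in males.

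Hoxa2, which sets the identity of the second pharyngeal arch, was at 2.402, 1.79, 1.37 and 1.35 CPM in the female libraries and at 0.985, 2.68, 1.06 and 0.633 CPM in the male ones. Hoxa3, which patterns the third arch and its artery, was at 2.59, 1.11, 0.709 and 0.841 CPM and at 0.849, 1.43, 0.397 and 0.900 CPM. Both were highest in Female replicate 1 and Male replicate 2. In all, these 2 libraries were the 2 highest for 6 of the 11 tested members (Hoxa2, Hoxa3, Hoxa5, Hoxb1, Hoxb4 and Hoxb5), as they were for 14.1% of all tested genes. The 2 were singled out on their Hox values, so this count describes that choice and tests nothing. Female replicate 1 was the highest library for 6 members and 10.1% of genes, and Male replicate 2 for 3 members and 31.9% of genes. Male replicate 2 was also the lowest library for 33.4% of genes and 0 members, so it stood apart beyond the Hox genes. Over all tested genes, deviations from the group means correlated at 0.578 between Female replicate 1 and Male replicate 2. The likeness of these 2 libraries thus reached beyond the Hox genes. Female replicate 4 and Male replicate 3 correlated at 0.682.

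**Figure D3:**
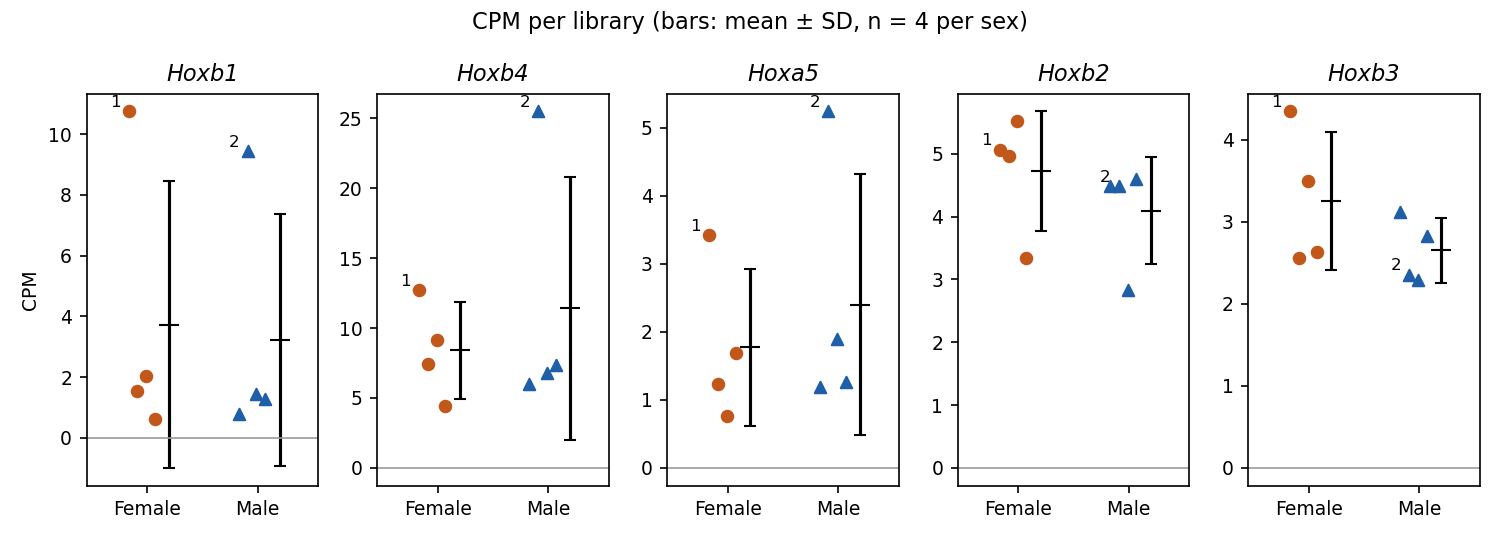
CPM (linear axis from 0) of Hoxb1, Hoxb4, Hoxa5, Hoxb2 and Hoxb3, 1 point per library with mean ± SD by sex, and Female replicate 1 and Male replicate 2 numbered. The sexes overlap in every panel, and the numbered libraries stand highest for the first 3 genes.

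No Hox gene was called different between the sexes. edgeR's quasi-likelihood test called 0 of the 11 tested members after Benjamini-Hochberg adjustment over 16377 genes, where 0.0366% of all tested genes (6) were called (0.0305% higher and 0.00611% lower in males), and 0 had an unadjusted p below 0.05, as 2.24% of all genes did. Limma-voom called 0 of 11, with 0 at an unadjusted p below 0.05. DESeq2, run on every gene with counts, called 0 of 35 members, with 2 at an unadjusted p below 0.05. The share of all genes at that level in the DESeq2 fit is not given here, so the 2 are not read as a result. Among the 11, 4 estimates were higher and 7 lower in males, where 47.1% of all genes had a lower one. The median log2 fold change (male minus female) was -0.19, beside 0.01 over all genes. The ranges of the 2 sexes overlapped for all 11, so 0 were separate, and 2.25% of all genes were. Without Female replicate 1 and Male replicate 2 the median was -0.12 over 10 tested members and 0 were called.

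Small p values were those of Hoxb3 and Hoxa3 among the members with lower estimates in males, and of Hoxc4, Hoxb4 and Hoxa5 among those with higher ones. Hoxb3 was at 3.26 ± 0.843 CPM in females and 2.65 ± 0.396 in males (SD), or -0.29 ± 0.21 (SE) in log2 (edgeR adjusted p 0.999, unadjusted p 0.205). Without Female replicate 1 and Male replicate 2 it was -0.05. Hoxa3 was at 1.31 ± 0.867 and 0.893 ± 0.421 CPM, with -0.54 ± 0.48. Among those with higher estimates in males, Hoxc4 was at 0.326 ± 0.161 CPM in females and 0.456 ± 0.146 in males, with 0.47 ± 0.44. Hoxb4 was at 8.42 ± 3.47 and 11.4 ± 9.41 CPM, with 0.45 ± 0.50, and at -0.03 without the same 2 libraries. Hoxa5 was at 1.77 ± 1.16 and 2.40 ± 1.92 CPM, with 0.43 ± 0.57. The estimate of Hoxb1, -0.19 ± 0.98, had the widest error of the 11, and the same adjusted p, 0.999, held for all of them.

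**Figure D4:**
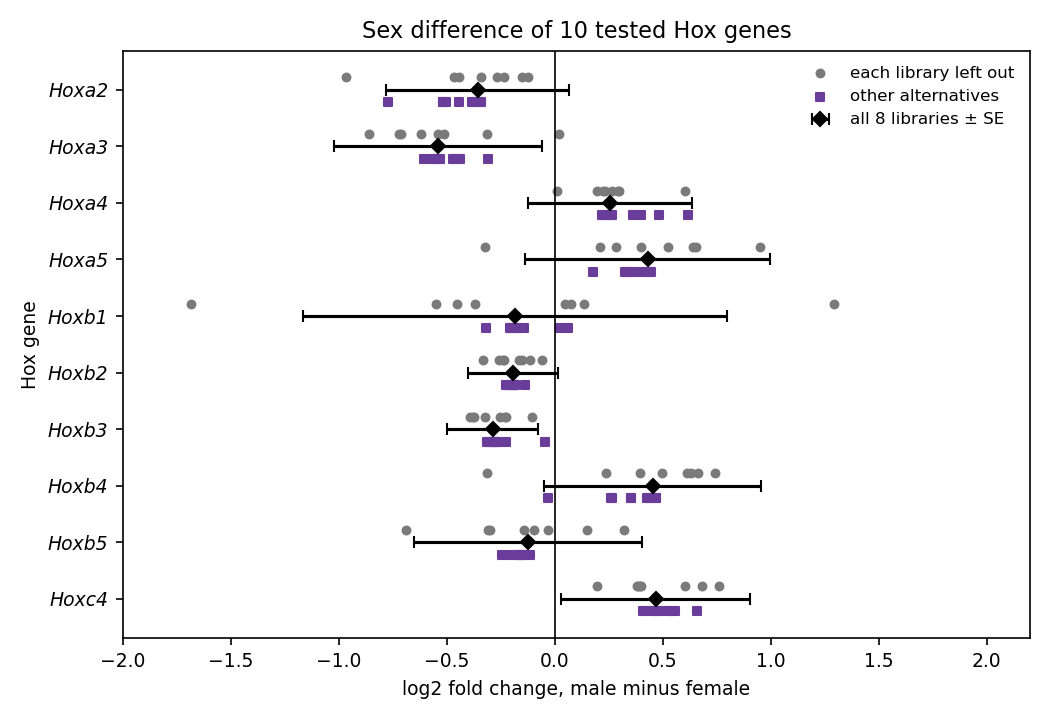
Log2 fold change (male minus female) of 10 tested Hox genes, with bars of 1 SE, and the estimates with each library left out (grey) or under other alternatives (purple). Estimates run from -0.54 (Hoxa3) to 0.47 (Hoxc4), and none was called.

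The remaining 28 members had too few counts to be tested, 24 with some and 4 (Hoxc10, Hoxc11, Hoxc12 and Hoxd12) with 0 counts in every library, which allows up to 0.0108 CPM over the 8 libraries together. The most counted was Hoxc5, with 73 counts in all, under the 106 of the least counted tested member. Of the posterior genes Hoxb9, with 55 counts over 8 libraries, had the highest level, 0.0793 CPM per kb, and Hoxb4 was 48.7 times higher. The tested Hoxb5 (0.145) and Hoxc4 (0.152) were much nearer to it. In Male replicate 1 Hoxb9, at 0.224, was above Hoxb5 (0.0488). In Hoxa the total counts were 2 for Hoxa6, 13 for Hoxa7, 68 for Hoxa9, 21 for Hoxa10, 4 for Hoxa11 and 7 for Hoxa13. In Hoxb they were 21 for Hoxb6, 15 for Hoxb7, 40 for Hoxb8 and 7 for Hoxb13. Hoxc6 had 27 counts, Hoxc8 8, Hoxc9 1 and Hoxc13 3. The whole Hoxd cluster had 121, with 38 for Hoxd8, 30 for Hoxd4, 17 for Hoxd1, 10 for Hoxd11, 9 for Hoxd9, 7 for Hoxd13 and 5 each for Hoxd3 and Hoxd10. The trunk, limb and tail end of all 4 clusters was thus low in these libraries at this depth. In Hoxd the low-numbered genes were low as well, and Hoxd8 was the highest member, at 0.0514 CPM per kb against 0.0338 for Hoxd4. Hoxd3 and Hoxd4 share 388 exonic bases and Hoxc5 and Hoxc10 share 166, so their counts are uncertain. Exons of Gm28230, on the same strand and at 0 counts, cover 53.1% of Hoxd3 and 39% of Hoxd4.

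Summed by cluster, Hoxa, Hoxb and all Hox genes overlapped between the sexes. All Hox genes came to 50.7, 25.1, 27.2 and 19.2 CPM in females and 23.0, 57.0, 21.4 and 22.9 CPM in males. The 9 Hoxc genes came to 0.827, 0.282, 0.506 and 0.749 CPM in females (0.591 ± 0.247) and to 1.05, 1.14, 1.06 and 0.933 CPM in males (1.05 ± 0.084). The Hoxc ranges did not overlap, with 218 counts behind them in all, and did not when scaled by library size alone either; as a sum over chosen members it was given no test. Hoxc5, which was not tested, was the 1 Hox member of 39 whose sexes did not overlap. Of the 11 tested members 0 did so, beside 2.25% of all tested genes. Hoxc5 was singled out after its values were seen. Hoxc5 was at 0.0506 to 0.240 CPM in females (24 counts) and 0.267 to 0.524 CPM in males (49 counts). Without Hoxc5, whose counts are uncertain as given above, the Hoxc sums overlapped, at 0.201 to 0.587 CPM in females and 0.578 to 0.667 in males. Hoxd sums, from 0.152 to 0.475 CPM in females and 0.476 to 0.582 in males, met almost exactly and overlapped with library size alone.

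Genes that work with or control Hox genes were read from lists, and 0 of the 51 tested were called in either direction. The TALE cofactors Pbx, Meis and Pknox had 6 of 9 estimates higher in males (median 0.08 in log2). Their summed level was 770 CPM in Male replicate 2, 648 in Female replicate 1 and 560 to 604 in the other 6. The cofactors were thus highest in the same 2 libraries as Hoxb1, and 4 of the 9 were so singly. The most abundant was Pbx2, at 188 ± 5.49 CPM in females and 186 ± 5.08 in males. Retinoic acid enzymes and receptors, summed, were at 384, 325 and 250 to 292 CPM in the same order. They had 7 of 17 estimates higher in males (median -0.13), with Rara at 49.0 ± 3.88 and 54.0 ± 2.93 CPM and Rxrb at 50.2 ± 3.68 and 51.2 ± 2.56. Polycomb and trithorax genes, which keep Hox clusters silent or active, had 8 of 23 estimates higher in males (median -0.01). They summed to 1392 CPM in Male replicate 2, 1337 in Female replicate 1 and 1182 to 1239 in the other 6 (these 2 libraries highest for 6 of 23). Psip1 led them at 229 ± 29.4 and 243 ± 77.9 CPM, then Phc2 at 114 ± 9.92 and 114 ± 15.2. The TMM factor of Male replicate 2 was the lowest of the 8, 0.864, which raises its CPM. Whether its place in the list sums here and below holds with library size alone was not tested. Of 6 Cdx, Gdf11 and hindbrain regulators of Hox genes 2 were tested, among them Gdf11 (29.7 ± 3.28 and 32.0 ± 0.895 CPM), and Cdx4 was at 0.

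Markers of several neighbouring tissues were highest in the 2 libraries with the most Hox RNA. Summed foregut and pharyngeal markers were at 70.9 CPM in Female replicate 1, 42.4 in Male replicate 2 and 19.1 to 36.7 in the others, with these 2 libraries highest for 7 of 12 genes. Hepatic markers, led by Afp and Ttr, were at 72.5, 31.8 and 2.06 to 17.9 CPM (4 of 5 genes). Posterior second heart field markers were at 310, 335 and 231 to 266 CPM (4 of 8), and anterior ones at 115, 124 and 73.0 to 91.9 CPM (5 of 7). Somite markers came to 6.75, 7.51 and 2.41 to 3.80 CPM, with Uncx at 0 and 2 of 5 tested genes highest in both. Neural tube markers came to 14.4, 19.0 and 8.41 to 11.998 CPM (2 of 4). Neural crest markers, led by Ednra and Twist1, did not follow. They were at 96.1 CPM in Female replicate 1 and 85.8 in Male replicate 2, against 95.3 to 115 in the others. Of 8 tested genes, 1 was highest in both libraries. Limb and epicardial markers were highest in these 2 libraries for 0 of 4 and 0 of 7 genes. Endocardial and endothelial markers were lowest there, at 471 and 413 CPM against 479 to 607 in the others. Myocardial markers were highest in Male replicate 2 (57715 CPM) but not in Female replicate 1 (37048). Over all tested genes, 14.1% had these 2 libraries as the 2 highest. By sex, foregut sums ran from 23.0 to 70.9 CPM in females and 19.1 to 42.4 in males, and posterior second heart field sums from 235 to 310 and 231 to 335, so neither separated the sexes. The part of these markers in the Hox levels was not tested.

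**Figure D5:**
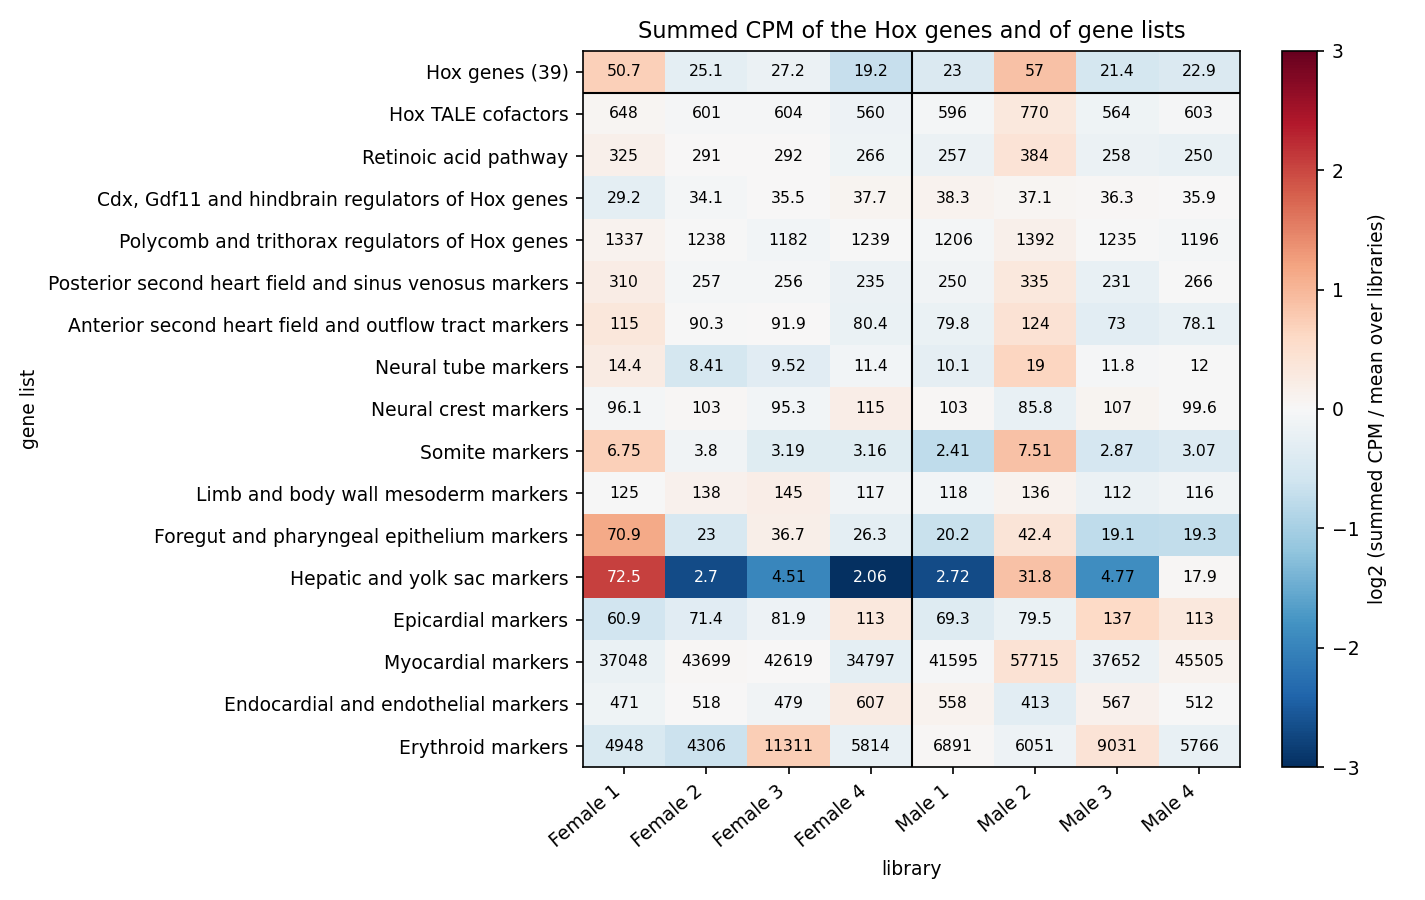
Summed CPM of the 39 Hox genes and of each gene list (rows) in each library (columns), coloured by log2 of the sum over its mean. Foregut, hepatic and second heart field markers are highest in Female replicate 1 and Male replicate 2, as the Hox sum is, and neural crest markers are not.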

How the data were processed

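Hearts of 4 female and 4 male C57BL/6 embryos (embryonic day 9.5) were sequenced. The authors deposited whole-number counts per gene for each library, with no normalization. The submitters' processing notes name Trimmomatic 0.36, STAR 2.5.2b, featureCounts (Subread 1.5.2) and build GRCm38 (mm10); they give no role for each. Annotation release, strandedness and handling of multi-mapping reads: not given in the sources used here. In a second deposited table the authors' normalized signal equals the counts over 1 factor per library (tolerance 1e-06, 16460 genes), and it served only as an alternative.

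Of the identifiers, 48970 had a symbol. Male and female libraries were compared by a robust 2-sided quasi-likelihood test in edgeR 4.0.16 (R 4.3.3) after TMM scaling and filterByExpr at a count of 10, with no covariate. Genes were called at a Benjamini-Hochberg adjusted p below 0.05 over all 16377 tested. CPM used TMM factors (0.864 to 1.07), and levels between genes were compared per kb of the deposited gene length. Errors are SD over libraries, or SE for fold changes. Replicates differed beyond sampling noise (chi-square per gene 7.93 to 192). Male pairs with Male replicate 2 were at 124 to 192 and the other male pairs at 7.93 to 18.95. Female pairs with Female replicate 4 were at 55.4 to 87.15 and the other female pairs at 22 to 24.06. The fit was tested on simulated data. Sums, motifs and ranges were computed in Python 3.11.15. Alternatives were DESeq2 1.42.0, limma-voom (limma 3.58.1), other scalings and filters, a replicate block and leaving libraries out.

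The members and lists were chosen with earlier results of these data known. The rule for names took all Hox members, with every library's value for up to 5 tested members per cluster with the highest CPM per kb and for the 3 smallest p in each direction. Of pathway lists it took the called genes and the 2 highest, and of marker lists their sums. Some genes that the rule takes are not reported here.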

Additional observations from a re-analysis of the deposited data

Results flagged for a closer look

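In groups of 4 libraries, 9 values of 21 quantities in 2 sexes (42 groups) stood far from the other 3 by Dixon's gap test, which chance alone flags in about 1 of 20 groups. Female replicate 1 was far above the other females for Hoxb1 (10.8 CPM). Male replicate 2 was far above the other males for Hoxb1 (9.43 CPM), Hoxb4 (25.5 CPM), the summed Hoxa genes (12.2 CPM) and the summed Hoxb genes (43.1 CPM). It was so too for all Hox genes (57.0 CPM) and Gm27477, a gene of the Hox intervals that is not a member (2.65 CPM). The sums share their largest genes with the single values, so these are not independent of each other.

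At the low end, Hoxb2 in Male replicate 3 (2.83 CPM) and Hoxc4 in Male replicate 1 (0.238 CPM) lay below the other males.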

How the results depend on the processing

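Over 17 alternatives, 0 Hox genes and 0 genes of the pathway lists were called, and 5 to 9 of all genes were, beside 6. The summed Hox level moved from 30.8 to 30.3 CPM with library size alone. The Hox median ran from -0.33 to 0.32, changing sign without Female replicate 1 (0.32) and without Male replicate 1 (0.14).

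Of 183 refits of single members, 171 kept their direction and 12 reversed, with no adjusted p under 0.835. Hoxb1 was at 0.062 with limma-voom and, leaving out 1 library, between -1.68 (without Male replicate 2) and 1.29 (without Female replicate 1), with 0.14, 0.047 and 0.077 without Male replicates 1, 3 and 4. Other members that reversed when 1 library was left out ran from -0.86 to 0.021 (Hoxa3) and -0.69 to 0.32 (Hoxb5), the upper values without Female replicate 1 and the lower without Male replicate 2, with Hoxb5 at 0.15 without Male replicate 1. Hoxa5 ran from -0.32 to 0.95 and Hoxb4 from -0.31 to 0.74, with the same 2 libraries at the ends, and Hoxb4 was at -0.030 without both. The cause was not tested.

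Correlations of same-numbered deviations ran from -0.417 to -0.006, with 0 of 4 above 0.1, so these gave no sign of pairing by replicate number. Pairs of different number ran from -0.743 (Female replicate 4, Male replicate 2) to 0.682 (Female replicate 4, Male replicate 3). Outlying libraries thus weighed on these values, and they cannot exclude a pairing. With the replicate number as a block, 5 genes and 0 Hox genes were called, the Hox median was -0.17 and Hoxb1 was at 0.023. Depth limits the 28 members not tested, none above 24 counts in a library.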

Other observations

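The 4 Hox intervals held 46 genes that were not members. Of these 25 had no counts, 6 were tested and 0 were called. Hoxb3os, antisense across Hoxb2 and Hoxb3, was at 8.17, 5.56, 7.29 and 3.87 CPM in the female libraries and at 4.96, 11.6, 4.15 and 5.43 CPM in the male ones. It was highest in Male replicate 2 and Female replicate 1, unlike Hoxb2 and Hoxb3, whose exons it overlaps. Hotairm1, transcribed from the 3′ end of Hoxa, was at 3.82, 1.73, 1.92 and 1.28 CPM in females and 1.66, 2.999, 1.28 and 0.87 CPM in males, and was likewise highest in these 2 libraries. The microRNA genes Mir10a, Mir10b and Mir196b were at 0 counts in every library.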
